A study of Mus musculus with 98 samples.

Results

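Shared p300 sites without STAT5 are regions of the genome of cultured mouse CD4+ T cells where the coactivator p300 was called in both chromatin immunoprecipitation (ChIP-seq) replicates and where STAT5 was not called in both. They were taken as the p300 replicate 1 peaks that overlap a p300 replicate 2 peak by at least 1 base and overlap no shared STAT5 peak, which is a STAT5 replicate 1 peak that overlaps a STAT5 replicate 2 peak. The rule found 791 sites among 4498 shared p300 sites, a share of 17.6% (95% Wilson interval 16.5 to 18.7%), and the other 3707 carried a shared STAT5 peak. The 791 sites are 7.38% of all 10716 p300 replicate 1 peaks. They lie on 754 p300 replicate 2 peaks, and 740 of them are the lone such site in theirs. All positions are in mouse genome build mm9.

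p300, encoded by Ep300, is a lysine acetyltransferase that does not read DNA sequence itself. Transcription factors bring it to enhancers and promoters, where it acetylates histones, and its ChIP-seq peaks are widely used to map active enhancers. STAT5 is the pair of transcription factors, STAT5A and STAT5B, that the receptor for interleukin-2 (IL-2) activates, and p300 is among the coactivators known to work with it. Many other factors in T cells also bring in p300, so a p300 site need not hold STAT5.

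The 98 samples of the series also include RNA-seq and histone marks, and 4 peak lists are used here. They come from wild-type C57BL/6 CD4+ T cells of pooled spleen and peripheral lymph nodes, sorted as naive cells (CD4+CD44-CD25-), stimulated through CD3 and CD28 and kept for 5 days in culture with IL-2. STAT5 and p300 were each precipitated in 2 samples. The labels name antibodies to STAT5A and to STAT5B, while the directories in the list headers name STAT5b alone. No cell without STAT5 or without p300 is among these 4 samples, so no list has a knockout control. The labels give no age for these samples and do not say whether replicates came from separate animals.

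The 4 lists differed in size and depth. The p300 lists held 10716 and 17762 peaks from 18.6 and 17.0 M (10 to the power 6) tags in replicates 1 and 2, with 3.83 and 8.09% of tags in peaks. The STAT5 lists held 26477 and 19320 peaks from 16.2 and 6.45 M tags, with 16.7 and 16.4% of tags in peaks. Shared peaks made up 42.0% of p300 replicate 1, 24.5% of p300 replicate 2, 42.4% of STAT5 replicate 1 and 58.8% of STAT5 replicate 2. The headers give STAT5 a tag threshold of 18 in replicate 1 and 16 in replicate 2, which is 11.1 and 24.8 tags per 10 M. The shallower STAT5 replicate 2 thus had the higher header threshold per tag sequenced. Its listed regions did not all reach it, as the lowest had 20.2 tags per 10 M.

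The p300 and STAT5 lists also overlapped by sequencing run. The headers place both replicate 1 lists and their input in 1 run folder and both replicate 2 lists and theirs in another. Within the replicate 1 run, 87.6% of p300 peaks overlapped a STAT5 peak (86.9 to 88.2%), and within the replicate 2 run 63.3% did (62.6 to 64.1%). Across runs the share was 52.7% for p300 replicate 1 on STAT5 replicate 2 and 40.4% for p300 replicate 2 on STAT5 replicate 1. Either p300 list therefore met the STAT5 list of its own run more often than that of the other run. Within a run, p300 peaks without a STAT5 peak were 1331 of 10716 (12.4%) in replicate 1 and 6510 of 17762 (36.7%) in replicate 2. The part of the run in the results below was not tested. Intervals on shares cover counting error only, since neighbouring sites are not independent. Heights exist for only 1 p300 list, so differences in height between sets of sites have no replicate test and are given as descriptions.

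Most of the 791 sites overlapped a STAT5 peak of at least 1 list, 638 of them or 80.7% (77.8 to 83.3%). The share with a STAT5 peak of at least 1 list was not computed over all 10716 p300 replicate 1 peaks. For single lists, 87.6% of all these peaks overlapped a STAT5 replicate 1 peak, from the same run, against 468 of the 791 sites. A STAT5 replicate 2 peak lay on 52.7% of them, against 174 of the 791 sites. The rule removes sites with a shared STAT5 peak, so these counts are a description. Whether STAT5 binds where only 1 list has a peak was not tested. STAT5 replicate 1 alone had a peak on 464 sites (58.7%), and STAT5 replicate 2 alone on 170 (21.5%). Another 4 carried peaks of both lists that did not overlap each other. The other 153 sites (19.3%, 16.7 to 22.2%) overlapped no STAT5 peak of either list. Taken from the side of p300 replicate 2, where 716 of 4359 shared regions lacked a shared STAT5 peak, the shares were similar: 432 had a STAT5 replicate 1 peak alone, 157 a STAT5 replicate 2 peak alone, and 110 (15.4%) no STAT5 peak. The number of sites rests on which lists are asked for: with any STAT5 replicate 1 peak removing a site 323 were left, and with any STAT5 replicate 2 peak 657. Without the need for p300 in both lists the number was 5039 from p300 replicate 1 and 11536 from p300 replicate 2.

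**Figure D1:**
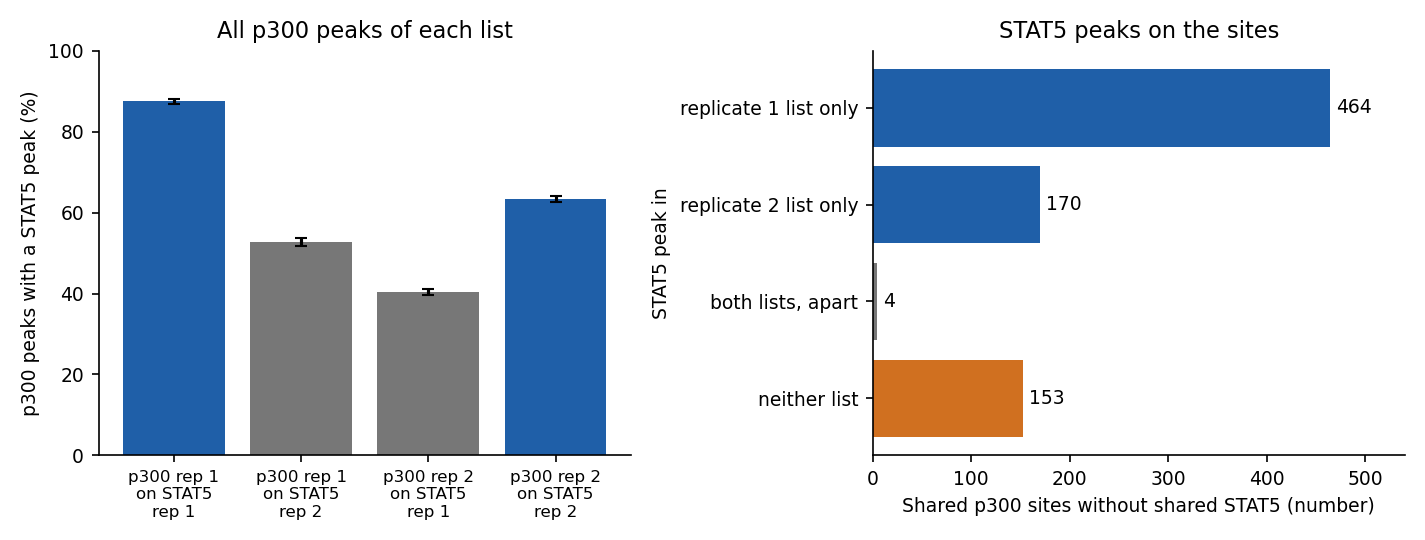
Left, the share of all p300 peaks of each list that overlap a STAT5 peak of each list, in percent with 95% Wilson intervals, where blue bars are lists of the same run (87.6 and 63.3%) and grey bars lists of different runs (52.7 and 40.4%). Right, the number of shared p300 sites without shared STAT5 by the STAT5 list that has a peak on them: 464 in replicate 1 only, 170 in replicate 2 only, 4 in both at separate places and 153 in neither.

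The STAT5 peaks on these sites were smaller at the median than those at p300 sites with shared STAT5. The rule removes each site whose STAT5 replicate 1 peak overlaps a replicate 2 peak, so these sizes are a description and no support. They were not set against STAT5 peaks of 1 list elsewhere. Where STAT5 replicate 1 had a peak on a site, its median width was 318 bases over 468 sites, against 486 bases at the 3707 p300 sites with shared STAT5. The STAT5 replicate 2 peaks on 174 sites had a median height of 52.7 tags per 10 M (quartiles 35.7 and 85.3), against 105.5 (54.3 and 221.8) at 3667 p300 sites with shared STAT5. Height here is the number of tags in the whole region, scaled by the authors to a library of 10 M. The median of 52.7 lies close to the 49.6 of all STAT5 replicate 2 peaks. Fold over input was 5.70 at the median on these sites and 8.08 at those with shared STAT5. For the 464 sites with a replicate 1 peak alone, the median gap to the nearest STAT5 replicate 2 peak was 6.03 kb, and 102 (22.0%) had one within 1 kb. For the 170 sites with a replicate 2 peak alone, the median gap to the nearest STAT5 replicate 1 peak was 3.25 kb, and 57 (33.5%) had one within 1 kb.

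The p300 region called around a site can be longer in replicate 2 than in replicate 1, and this splits the sites further. At 70 sites (8.85%) the p300 replicate 2 region that matched the site did overlap a shared STAT5 peak, although the replicate 1 peak did not. Their p300 regions were large, with a median replicate 2 length of 2017 bases and a median height of 290.2. At 615 sites (77.7%) neither p300 region met a shared STAT5 peak, but a STAT5 peak of 1 list lay on at least one of them. The remaining 106 sites (13.4%, 11.2 to 16.0%) had no STAT5 peak of any list on either p300 region, and 95 of these lie outside a single run on chromosome 14 described below.

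p300 itself was lower at the median over all sites without shared STAT5, but not in each kind of site. Their median p300 height in replicate 2 was 24.2 tags per 10 M (quartiles 16.5 and 49.5), against 51.3 (29.5 and 97.3) at the sites with shared STAT5, a ratio of 0.472. The 464 sites with a STAT5 replicate 1 peak alone had a median height of 19.5 and a median fold over input of 3.87. The 153 sites with no STAT5 peak had 34.8 and 4.63, and the 170 with a STAT5 replicate 2 peak alone had 53.1 and 4.70, against 51.3 and 4.56 at the sites with shared STAT5. Of these kinds, the sites whose STAT5 peak was called in replicate 1 alone had the lowest median height. Of the 153 sites with no STAT5 peak, 47 had a replicate 2 region that did overlap one. The 106 sites with no STAT5 peak on either p300 region were also low, at a median height of 23.3 and a fold of 4.335. These heights come from p300 replicate 2, which shares its run with STAT5 replicate 2, and the part of the run in this order was not tested. In tags as counted, the medians were 41 without and 87 with shared STAT5. Counted once per replicate 2 region, the median was 23.0 over the 754 regions under sites without and 50.1 over the 3605 under sites with shared STAT5. A region that holds sites of both kinds is in both counts. The interquartile ranges of both sets overlap, between 29.5 and 49.5. Tag density within the region was also lower over all sites, with medians of 165.4 tags per kb without and 234.5 with shared STAT5. Fold over input differed less, at a median of 4.10 (quartiles 3.30 and 5.94) without and 4.56 (3.30 and 6.52) with shared STAT5. Scaled input tags were lower too, at 39.95 per kb without and 54.9 with shared STAT5. Both input densities exceed the 8.48 tags per kb that the header gives as the mean of the p300 library over the genome. Both differences depended on the STAT5 definition. When any STAT5 peak of either list removed a site, the ratio of median heights was 0.747 in place of 0.472, and when any STAT5 replicate 1 peak did, it was 0.925. The ratio of median folds, 0.899 by the rule, was 1.03 and 1.05 under these definitions. The 95% intervals of the median over the sites, divided by the median with STAT5, were 0.935 to 1.25 and 0.971 to 1.12. They rest on 153 and 323 sites, treat sites as independent and leave out the spread of the median with STAT5. They therefore cannot decide whether a difference in fold remains. The ratio was 1.40 when all p300 replicate 2 peaks were taken.

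Ordering the 4498 shared sites by p300 height showed where shared STAT5 was missing. In the lowest decile, with heights of 11.2 to 16.5, 198 of 450 sites (44.0%) lacked shared STAT5. The share was 34.9% in the second decile, 23.6% in the third and 16.9% in the fourth. From the fifth decile to the ninth it lay between 6.00 and 10.2%. In the highest decile, at heights of 176.3 to 4324.6, it stood at 16.9% again, with 76 of 449 sites. Those 76 sites rest on only 43 replicate 2 regions, 25 of them lie in the chromosome 14 run, and 48 have a replicate 2 region that does carry shared STAT5. Outside that run the highest decile held 11.7%. When each replicate 2 region was counted once and was called free of shared STAT5 only if no part of it overlapped one, the highest decile held 4.62% and the lowest 44.3%. The turn upward at the highest p300 sites was thus absent when whole regions were counted, and the high share at the lowest sites was there in each count. Height counts the tags of the whole region, and a longer region has more sequence that can overlap a STAT5 peak. The shares by decile are therefore a description and no support.

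**Figure D2:**
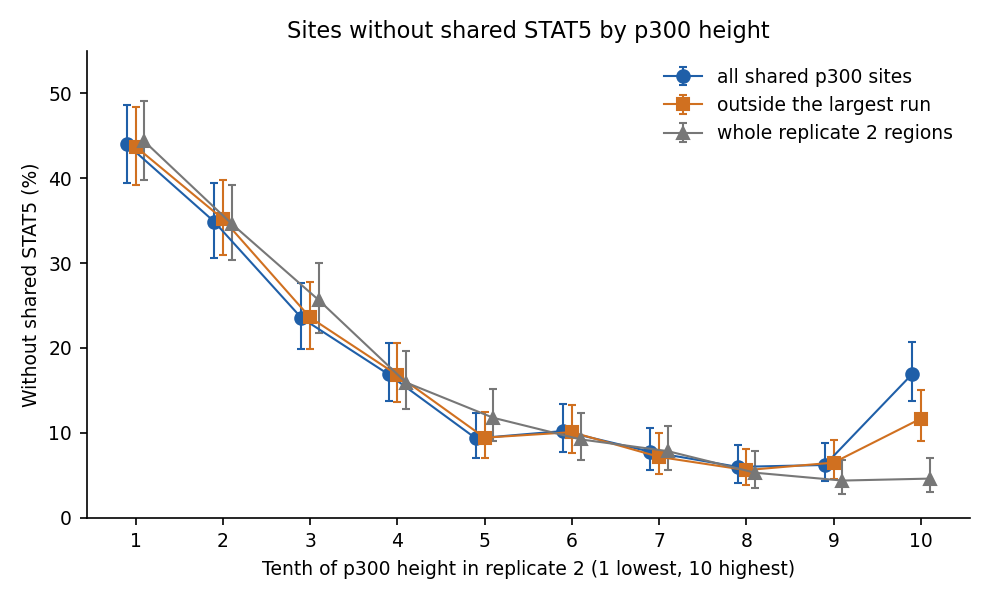
Share of sites without shared STAT5, in percent with 95% Wilson intervals, by decile of p300 height in replicate 2. Blue circles are all 4498 shared p300 sites, orange squares those outside the largest run, and grey triangles p300 replicate 2 regions counted once; the 3 series start at 44.0, 43.7 and 44.3% and end at 16.9, 11.7 and 4.62%.

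Width is the one measure that both p300 lists give. The rule itself works on the replicate 1 interval, and a shorter interval has less sequence that can overlap a STAT5 peak, so widths are a description and no support. The sites without shared STAT5 had a median width of 202 bases in replicate 1 and 256 in replicate 2, against 287 and 349 for the sites with shared STAT5. The smallest peaks of a list have the peak size that its header gives, to within 1 base. In replicate 1, 33.1% of the sites without shared STAT5 were of that size (156 bases), against 14.7% of those with it. In replicate 2 (171 bases) the share was 30.1% of the sites without and 10.2% of those with shared STAT5. Read the other way, 32.4% of the smallest replicate 1 peaks lacked shared STAT5, against 8.55% of those above 500 and up to 1000 bases. For replicate 2 these values were 38.6 and 8.44%. Above 1000 bases the share was 15.4% (10 of 65) in replicate 1 and 24.5% (78 of 318) in replicate 2.

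**Figure D3:**
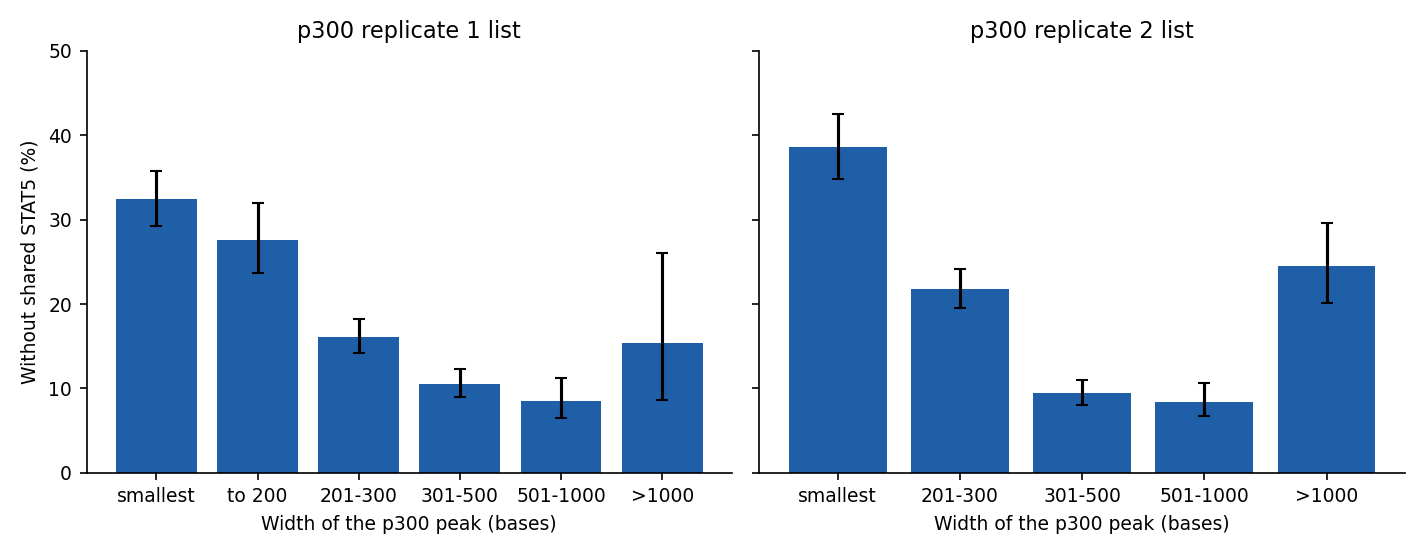
Share of shared p300 sites without shared STAT5, in percent with 95% Wilson intervals, by width of the p300 peak in bases, in the replicate 1 list on the left and in the replicate 2 list on the right. In both lists the smallest peaks have the highest share (32.4 and 38.6%) and those above 500 and up to 1000 bases the lowest (8.55 and 8.44%).

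The median gap to the nearest shared STAT5 peak was 9.69 kb (quartiles 1.54 and 44.6 kb). A shared STAT5 peak lay within 500 bases of 91 sites (11.5%), within 1 kb of 157 (19.8%), within 10 kb of 403 (50.9%) and within 100 kb of 686 (86.7%). The 106 sites with no STAT5 peak on either p300 region had a median gap of 11.5 kb to a shared STAT5 peak and of 1.49 kb to a STAT5 peak of any list. Of these 106, 40 had a STAT5 peak of some list within 1 kb and 105 had one within 100 kb. The same shares were not computed for other positions, so they describe these sites alone.

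**Figure D4:**
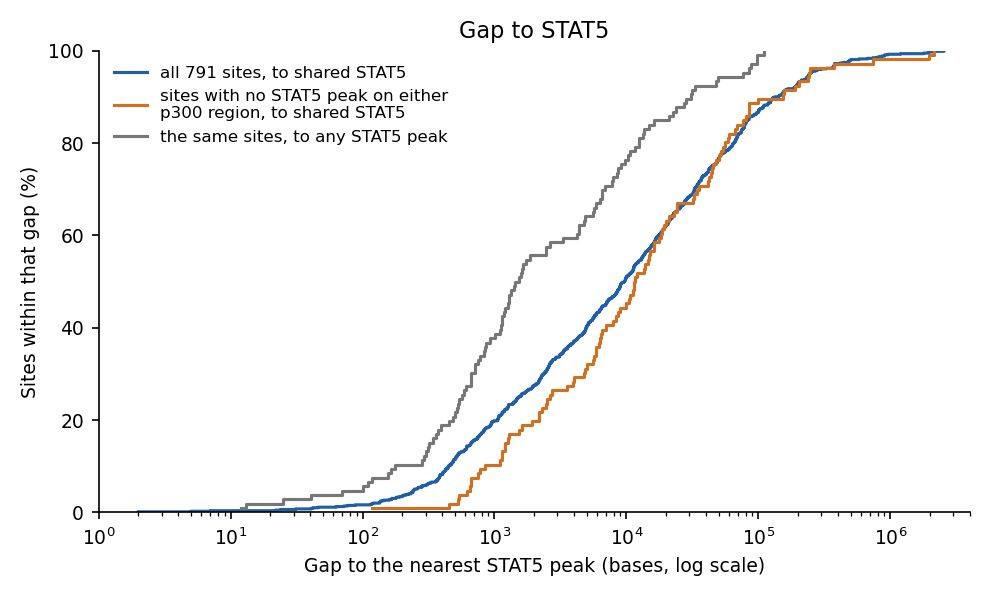
Cumulative share of sites, in percent, against the gap in bases to the nearest STAT5 peak on a log scale. Blue is all 791 sites to shared STAT5 peaks (median 9.69 kb), orange the 106 sites with no STAT5 peak on either p300 region to shared STAT5 peaks (11.5 kb), and grey the same 106 sites to a STAT5 peak of any list (1.49 kb); the grey curve lies left of the other 2.

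The edge of the rule cuts through touching peaks. Just inside it, chr19:53603188-53603343 lies 2 bases from a shared STAT5 peak, chr10:117843901-117844056 lies 5 bases away and chr11:70469385-70469600 lies 7 bases away. Each carries a STAT5 replicate 2 peak of its own, with heights of 172.2, 197.0 and 35.7. Just outside it, chr8:67374105-67374260 overlaps a shared STAT5 peak by 4 bases, chr11:99005127-99005282 by 7 and chr12:40949572-40949727 by 14. The p300 heights are 97.3, 60.2 and 35.4 inside and 49.5, 62.5 and 128.6 outside, so the 2 trios do not separate. Such cases are few: 13 sites lie within 100 bases of a shared STAT5 peak, and 5 sites outside the rule have an overlap of 20 bases or less, while the median overlap is 278 bases.

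At the other end, the 3 sites farthest from shared STAT5 are chr7:63097528-63097683 (2551 kb), chr13:118009315-118009470 (2131 kb) and chr13:117837339-117837494 (1959 kb). All 3 are of the smallest width, with p300 heights of 27.1, 15.9 and 12.4. The first carries a STAT5 replicate 2 peak of height 34.1, the second has a STAT5 peak 176 bases away, and the third has none within 23 kb, its nearest lying 23867 bases off.

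The sites were mostly scattered. With neighbours joined at a distance often used to stitch enhancers, between the 5 and 25 kb also tried, 638 of the 791 stood alone and 153 (19.3%) had another such site within reach. For the p300 sites with shared STAT5, which are more numerous, 1476 of 3707 (39.8%) had one of their own kind within that distance. A p300 site with shared STAT5 lay within the same distance of 278 of the 791 sites (35.1%). The 153 sites formed 46 runs, of which 35 were pairs, 11 held 3 or more sites and 5 held 5 or more. Runs of 5 or more held 65 of the 791 sites (8.22%), against 176 of the 3707 with shared STAT5 (4.75%). The largest run alone held 34 of those 65. Outside the largest run, 15.7% had a neighbour.

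The largest run has over 3 times the sites of the next. It holds 34 sites over 56.3 kb of chr14:54794824-54851098, with 8 p300 sites that carry shared STAT5 among them. In replicate 2 a single p300 region, chr14:54812987-54845406, covers 32419 bases of it. That region had 7333 tags (95% Poisson interval 7166 to 7503) against 1011.6 scaled input tags, a fold of 7.25 and a height of 4324.6. p300 replicate 1 split the same stretch into 23 shared peaks, of which 17 had no shared STAT5. Over the whole run, p300 replicate 1 had 43 peaks and replicate 2 had 13, while STAT5 had 20 peaks in replicate 1 and 11 in replicate 2, with 7 shared. p300 peaks covered 31093 bases in replicate 1 and 48620 in replicate 2, and STAT5 peaks 8126 and 3596 bases. The run was picked for its p300 sites without shared STAT5, so these lengths describe it and are no separate finding.

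Within this run the sites vary widely. The widest is chr14:54825267-54827927 with 2661 bases, which carries a STAT5 replicate 1 peak 354 bases wide. Next in the run comes chr14:54814092-54816194 with 2103 bases, which overlaps no STAT5 peak of either list and lies 1310 bases from the nearest one. Of the 34 sites, 24 overlap no STAT5 peak of any list, 9 a STAT5 replicate 1 peak alone and 1 a replicate 2 peak alone. Their widths ran from 156 to 2661 bases, with a median of 451. Just before that long region, chr14:54811267-54812741 is one of 3 sites in a replicate 2 region of 4074 bases, which is the tallest without a STAT5 peak on either p300 region. This region has a height of 431.7, 732 tags and a fold of 8.66. The site chr14:54796160-54796565 has a height of 87.3 and a fold of 19.3, and its scaled input is 7.31 tags per kb, against 31.2 in the region of 32419 bases.

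The 4 other runs of 5 or more sites are smaller. One of 10 sites spans 19.4 kb at chr6:41484375-41503781, with 6 replicate 2 regions up to a height of 401.0, and holds no p300 site with shared STAT5. In it, 7 sites have no STAT5 peak in either list, and the site chr6:41485513-41485882 (height 151.0, 256 tags against 17.9 scaled input tags, fold 14.3) lies in the next tallest region without STAT5 on either p300 region. A run of 9 sites covers 18.4 kb at chr1:140054260-140072615, reaches a height of 332.0, and holds 3 p300 sites with shared STAT5 among its own. There, chr1:140064492-140064738 has no STAT5 on either p300 region at a height of 84.9. Of the 7 sites in 10.5 kb at chr11:11585800-11596257, the 2370-base peak chr11:11589803-11592172 is the second widest of the 791 and belongs to a replicate 2 region of height 598.0. The last run has 5 sites in 11.9 kb at chr9:32504526-32516438, with no p300 site with shared STAT5 in it and heights up to 159.8. Sites with no STAT5 peak of either list number 7 in the chromosome 6 run, 7 in the chromosome 1 run, 4 in the chromosome 11 run and 2 in the chromosome 9 run.

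The sites with the highest p300 mostly belonged to replicate 2 regions that carry shared STAT5. The long region on chromosome 14 gives its height to all 17 sites in it, so the 5 highest are ties there. Taken once per replicate 2 region, a selection made after the values were seen, the next are chr9:107203175-107203630 in a region of height 1059.2, chr11:69224820-69224975 in one of 1034.4 and the chromosome 11 site above at 598.0. All 3 of these regions carry shared STAT5, at gaps of 1.06 kb, 159 bases and 265 bases from the site. The site at chr11:69224820-69224975 also has a STAT5 replicate 2 peak of height 1079.7 on it. Among the 10 highest by region, 8 regions carry shared STAT5, and the 2 that do not are both in the chromosome 14 run, at heights of 513.1 and 431.7. Outside the 5 large runs, the tallest site with no STAT5 on either p300 region is chr11:115608125-115608280, at a height of only 63.7 with 108 tags.

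The largest folds over input belonged to weak sites. chr6:134516903-134517058 has a fold of 89.0 from 38 tags (26.9 to 52.2), chr7:36527389-36527664 a fold of 56.2 from 24 tags (15.4 to 35.7) and chr7:17742334-17742528 a fold of 53.9 from 23 tags (14.6 to 34.5). Their scaled input is 0.4 tags each, so these folds rest on almost no input tags. All 3 have a STAT5 peak of 1 list on them.

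Across the 20 chromosomes the share of shared p300 sites that lacked shared STAT5 ran from 10.3% on chromosome 16 (18 of 174, interval 6.64 to 15.8%) to 32.8% on chromosome 14 (57 of 174, 26.2 to 40.04%), with a median of 16.9%. Outside the large run, the share on chromosome 14 was 17.4% (23 of 132). The X chromosome came next at 29.8%, from 17 of 57 sites with an interval of 19.5 to 42.7%, and chromosome 6 stood at 22.9% (55 of 240). Few sites stand behind the X value. All 4 lists were sparse on X, with 1.52 to 1.95% of their peaks, and 2.15% of the sites without shared STAT5 lay there.

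**Figure D5:**
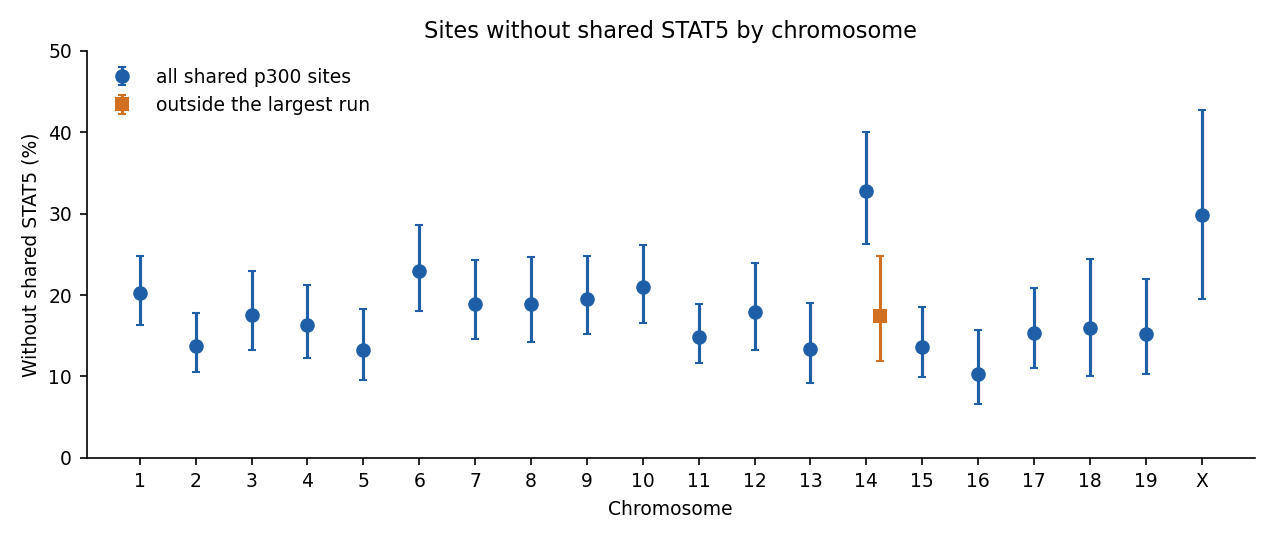
Share of shared p300 sites without shared STAT5 on each chromosome, in percent with 95% Wilson intervals; the orange square is chromosome 14 outside the largest run. Chromosome 14 is at 32.8% with the run and at 17.4% without it, X at 29.8% has the widest interval, and the other chromosomes lie between 10.3 and 22.9%.

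Set against p300 peaks called in replicate 1 alone, the shared sites had STAT5 more often. Of 6218 unshared p300 replicate 1 peaks, 4248 (68.3%) had no shared STAT5 peak, while 17.6% of the shared ones had none. A STAT5 replicate 1 peak, from the same run, lay on 92.8% of the shared sites and on 83.8% of the unshared peaks. A STAT5 replicate 2 peak, from the other run, lay on 85.4% of the shared sites and on 29.0% of the unshared peaks. The larger contrast lay in STAT5 replicate 2. The shared sites were themselves chosen by a peak in p300 replicate 2, which is of the same run as that list. The part of the run and that of being shared cannot be told apart here.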

How the data were processed

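ChIP-seq peak lists of STAT5 (2 samples) and p300 (2 samples) were used. Per the file headers, the authors called peaks in each sample with HOMER findPeaks in factor style, joined them into regions of variable length, and required 2-fold over input and 4-fold over the surrounding 10 kb. Poisson cut-offs in the headers were 1e-14 in both replicate 1 lists, 1e-17 in STAT5 replicate 2 and 1e-18 in p300 replicate 2. The limits on the p-value over input were 1e-06 in both replicate 1 lists, 0.001 in STAT5 replicate 2 and 1e-05 in p300 replicate 2. The submitters' processing notes name MACS2, Bowtie2 and bedtools with mm9 and no versions; the headers were followed. The deposited replicate 2 lists give tag counts per region, a height (signal in tags per 10 M), scaled input signal, a ratio over input (fold), a p-value and a findPeaks score. The deposited replicate 1 lists are BED files whose score column is 1 throughout. All these peak values are the authors'.

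Overlaps of at least 1 base were found in Python 3.11.15 (pandas 2.3.3, scipy 1.17.1), after BED starts were aligned with HOMER starts, and the code was checked against bedtools 2.31.1 on simulated intervals. Where several replicate 2 regions met a site, the tallest gave its height. The planned rule for named regions took the 5 highest p300 heights, the 3 highest folds, the 3 farthest from and the 3 nearest to shared STAT5, and the largest run, without chromosome 18. Further regions were picked after their values were seen. No mm9 genome or annotation was at hand, so genes, promoters, motifs and RNA-seq libraries were not linked and no sequence is shown. The sites and comparisons were chosen with earlier results of these data known.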

Additional observations from a re-analysis of the deposited data

How the results depend on the processing

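Each of 8 results was recomputed under other settings: the number of sites (791), the percent with a STAT5 peak of 1 list (80.7), the ratios of p300 height (0.472) and fold (0.899) to sites with STAT5, the percent of sites in the top decile by height (9.61), the median gap to STAT5 (9.69 kb), the percent with a neighbour (19.3) and the percent without STAT5 on chromosome 14 (32.8). The gap runs to the kind of STAT5 peak that removes a site under each setting, which by the rule is a shared one. Of 104 values, 45 stayed within counting error or within 1.5 times the count. A stricter overlap, set by the length of the shorter peak, moved none. With centres within 200 bases the height ratio was 0.607 and the gap 7.12 kb. The number of sites rose to 1152, which is still within 1.5 times the count. With any STAT5 peak of either list removing a site, the results in the order above were 153 sites, 0%, 0.747, 1.03 (above 1, interval 0.935 to 1.25), 19.6%, 0.868 kb, 35.3% and 15.5%. That gap runs to a STAT5 peak of either list. The share over all chromosomes changes with the setting too. It was 17.6% by the rule, while here 153 of 4498 shared sites were left. The 15.5% on chromosome 14 thus has another background than the 32.8%. With p300 replicate 2 as the base list the results were 84.6%, 0.447, 2.79%, 12.2 kb, 12.99% and 22.8%, leaving out the count and the fold, which held. Among p300 peaks above the median fold they were 243 sites, 73.3%, 0.422, 1.02 (interval 1.003 to 1.07), 18.5%, 7.60 kb and 28.4%, and chromosome 14 held.

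Settings added after the data were seen gave, outside the largest run, 6.87% in the top decile, 15.7% with a neighbour and 17.4% on chromosome 14. With 1 site per p300 replicate 2 peak the percent with STAT5 of 1 list was 83.8, the top decile 3.84%, neighbours 12.9% and chromosome 14 22.8%. Where the replicate 2 region also had to lack shared STAT5, the values were 0.427 for height, 3.88% for the top decile, 12.4 kb, 14.8% and 23.0%. BED starts taken as written moved none. Stitching at 5 kb gave 15.5% with a neighbour.

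Leaving out 1 of the 4 lists gave 323 (without STAT5 replicate 2) to 11536 sites (without p300 replicate 1), 52.1 to 78.3% with STAT5 of 1 list, height ratios of 0.420 to 0.925, fold ratios of 0.880 to 1.40, 5.18 to 17.3% in the top decile, gaps of 2.365 to 24.0 kb, 18.6 to 47.5% with a neighbour and 18.4 to 71.9% on chromosome 14. The gap of 2.365 kb, without STAT5 replicate 2, runs to STAT5 replicate 1 peaks and not to shared ones. The 2 chromosome 14 values have unlike backgrounds. Without STAT5 replicate 2 (18.4%), 323 of 4498 sites lacked STAT5 over all chromosomes. Without p300 replicate 1 (71.9%), 11536 of 17762 peaks did. The fold ratio was above 1 without p300 replicate 1 (1.40) and without STAT5 replicate 2 (1.05, interval 0.971 to 1.12). p300 height could not be had without p300 replicate 2. The cause of these moves was not tested. Promoter shares, motifs and the response of linked genes were planned and not run for want of an mm9 reference. No paired analysis was possible because the results come from no test; the shares within each run are in the report. STAT5 replicate 2 was the shallowest list, with 6.45 M tags, and how far its depth limits the calls was not tested.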

Other observations

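One site has the highest input density of the 791. At chr17:39983921-39984614 the p300 replicate 2 region held 439 tags against 160.5 scaled input tags, which is 153.7 input tags per kb. The next is 131.0 at chr8:4678438-4678631, and the median of the sites is 39.95. Its p300 height is 258.9 with a fold of only 2.74. A STAT5 replicate 2 peak of height 1911.2 lies on it, the tallest STAT5 replicate 2 peak on any of the sites, with a fold over input of 3.48, and no STAT5 replicate 1 peak was called. The nearest shared STAT5 peak is 494.9 kb away. It is counted among the 170 sites with STAT5 in replicate 2 alone.

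Other tall STAT5 replicate 2 peaks on sites without shared STAT5 lie beside shared STAT5. A peak of height 961.8 lies on chr8:81553111-81553304, which is 676 bases from a shared STAT5 peak, and one of 521.2 on chr8:87508793-87508948, which is 240 bases from one. In both cases the p300 replicate 2 region carries a shared STAT5 peak.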
